A study of Mus musculus with 6 samples.

Results

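The genes examined here give spinal neurons their fast transmitter: Gad1, Gad2, Slc32a1 and Slc6a5 for GABA and glycine, and Slc17a6, Slc17a7 and Slc17a8 for glutamate. They were chosen by gene symbol, as every probe set that the platform annotation pairs with 1 of these 7 genes. Of the 7 genes 6 had at least 1 probe set, 13 in all among 45037, and Slc17a8 was not analysed here because no probe set was paired with it. Expression was measured on Affymetrix arrays in the first lumbar segment of the cord (L1) of male SCID mice, 15 weeks old at sampling, 6 weeks after the procedure, from an age of 9 weeks, with 2 arrays in each of 3 groups. N-inv mice, the neural invasion model, had received Capan-1 cells, which are a line of human pancreatic cancer, within the sciatic nerve of the left side. SC mice were the subcutaneous model and PBS mice, named for phosphate-buffered saline, the other control; the labels give no cells for SC and no route for PBS. All groups share the immune deficiency of the SCID strain, which lacks mature T and B lymphocytes. The labels do not state that arrays of a group are separate mice, and the p-values therefore rest on a spread that could be technical. In whole cord a lower value can reflect fewer cells of a type or less RNA per cell, and the arrays cannot tell these apart.

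Inhibitory neurons of the cord make GABA from glutamate with the glutamate decarboxylases GAD67 (Gad1) and GAD65 (Gad2), and many of them also release glycine, which they take up with the transporter GlyT2 (Slc6a5). A common vesicular transporter, VGAT (Slc32a1), loads both transmitters into synaptic vesicles. Glutamate is loaded by VGLUT2 (Slc17a6) in most excitatory neurons of the cord, while VGLUT1 (Slc17a7) in the cord is carried mainly by the endings of large sensory fibres, whose cell bodies lie in the dorsal root ganglia. VGLUT3 (Slc17a8) marks smaller populations of neurons. In the dorsal horn the inhibitory neurons restrain the relay of pain signals.

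The sample as a whole had the marks of lumbar cord. All 6 Hox genes of the lumbar list were above the filter on dim probe sets, with a summed intensity between 27160 and 31630 in every array. Of the 5 forebrain and cerebellum markers with a probe set, 4 lay below the filter, and the exception, Neurod6, measured between 111.6 and 196.3. Emx1, below the filter by its mean, still read 231.3 and 127.3 in PBS, against 30.97 to 45.27 in the N-inv and SC arrays. The SC arrays stood apart: their correlation with each other was 0.953, against 0.967 within N-inv and within PBS. SC replicate 2 also read 13060 for Xist, a transcript of the inactive X chromosome in females, against 138.6 to 228.5 in the other 5 arrays, although all mice are labelled male, and it was positive for the Y-linked Eif2s3y at 3152. The ratio of 3' to 5' signal of the Actb control probes, a measure of RNA quality, was 3.32 and 3.42 in N-inv, 3.81 and 4.71 in SC and 3.05 and 3.57 in PBS. The SC differences of the 5 tested members, by their brightest probe sets, are therefore given without each SC array as well, and those of other genes and of lists rest on both SC arrays.

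Of the genes 5 were abundant in every array and Slc17a7 was close to the floor of the measurement. Gad1, Slc32a1, Slc6a5 and Slc17a6 had their brightest probe sets at the 98.3, 97.2, 98.2 and 97.8 percentiles of all probe sets by mean intensity, and Gad2 at the 92.9 percentile. Slc17a7 lay at the 17.6 percentile, below the filter, so it was not tested. Probe sets differ in how strongly they bind, so these positions say how well each gene could be read and do not rank the genes by their RNA. Between arrays the 5 abundant genes moved little, with the highest array 1.35 to 1.67 times the lowest.

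GAD67 and GAD65 came first. The brightest Gad1 probe set measured 14850 and 15580 in N-inv, 12650 and 17030 in SC, and 12600 and 14080 in PBS. The N-inv arrays lay above both PBS arrays and inside the range of the SC arrays. The log2 difference was 0.19 ± 0.20 (SE) for N-inv against PBS, with an adjusted p of 1 in limma, and 0.05 ± 0.20 for N-inv against SC, with an adjusted p of 0.968. The second of these was -0.16 when SC replicate 1 was left out and 0.27 when SC replicate 2 was. For SC against PBS it was 0.14 ± 0.20 (adjusted p = 0.91), which turned to -0.07 when SC replicate 2 was left out and reached 0.35 when SC replicate 1 was. A dimmer Gad1 probe set gave the same picture for N-inv against PBS, with N-inv arrays at 899.5 and 842.6 and PBS arrays at 741.0 and 821.0. It read 880.3 and 639.2 in SC, where the higher array was replicate 1 and not replicate 2 as in the brighter probe set.

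Gad2, the isoform tied to nerve terminals, measured 4131 and 4217 in N-inv, 4665 and 6418 in SC, and 3852 and 4542 in PBS. The N-inv arrays lay within the PBS range, and both SC arrays lay above all others. The log2 difference was 0.00 ± 0.21 (SE) for N-inv against PBS, with a 95% interval from -0.49 to 0.49. It was 0.39 ± 0.21 for SC against PBS and -0.39 ± 0.21 for N-inv against SC, with adjusted p of 0.71 and 0.631 in limma. Leaving out SC replicate 2 gave 0.16 and -0.16 for these comparisons and leaving out SC replicate 1 gave 0.615 and -0.618, so the size of the SC difference rested on which SC array was used. The other Gad2 probe set did not separate SC, with 614.7 and 593.4 in N-inv, 580.1 and 750.4 in SC, and 706.5 and 577.3 in PBS.

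The vesicular transporter VGAT ran in the other direction. Slc32a1 measured 10580 and 11410 in N-inv, 8168 and 10440 in SC, and 10370 and 11150 in PBS. N-inv and PBS overlapped, the SC arrays lay below both N-inv arrays, and SC replicate 2 lay just above PBS replicate 1. In the values as deposited, with no further scaling, SC read 8899 and 9843 against 10622 and 10899 in PBS, so that these groups did not overlap. The log2 difference was 0.03 ± 0.18 (SE) for N-inv against PBS, and its sign turned with quantile normalization (-0.04) and with values as deposited (-0.003). It was 0.25 ± 0.18 for N-inv against SC and -0.22 ± 0.18 for SC against PBS, with adjusted p of 0.735 and 0.831 in limma. Leaving out SC replicate 2 gave 0.43 and -0.40 here, while leaving out SC replicate 1 gave 0.07 and -0.04. The gene's other 3 probe sets were below the filter, between 4.91 and 93.97 in all arrays.

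GlyT2, the marker of glycinergic neurons, measured 13420 and 14590 in N-inv, 12400 and 17530 in SC, and 12980 and 13520 in PBS by the brightest Slc6a5 probe set. The SC arrays held both the lowest and the highest value of the 6, and N-inv and PBS overlapped. In the values as deposited, N-inv replicate 1 was the lowest at 13134, below SC replicate 1 at 13511. The log2 difference was 0.08 ± 0.21 (SE) for N-inv against PBS, -0.07 ± 0.21 for N-inv against SC and 0.15 ± 0.21 for SC against PBS, with adjusted p of 1, 0.95 and 0.904 in limma. The last 2 values had the opposite sign without SC replicate 2, at 0.17 and -0.10, and were -0.32 and 0.40 without SC replicate 1. A further Slc6a5 probe set lay below the filter, between 54.58 and 179.8.

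Among the glutamate transporters VGLUT2 was the one that could be read. The brightest Slc17a6 probe set measured 12010 and 12750 in N-inv, 12470 and 14320 in SC, and 10240 and 12120 in PBS. SC lay above PBS in both arrays, and N-inv overlapped each of the others. In the values as deposited, SC read 13588.4 and 13504.5, above all N-inv and PBS arrays. The log2 difference was 0.15 ± 0.17 (SE) for N-inv against PBS and 0.26 ± 0.17 for SC against PBS, with adjusted p of 1 and 0.773 in limma. For N-inv against SC it was -0.11 ± 0.17, and 0.09 when both probe sets of the gene were averaged. Leaving out SC replicate 1 or SC replicate 2 gave -0.21 or -0.01 for this comparison. For SC against PBS the averaged value was 0.01, and the other probe set alone gave -0.23 with overlapping groups. VGLUT1 gave 71.04 and 8.61 in N-inv, 39.83 and 64.04 in SC, and 82.94 and 58.80 in PBS by the sole Slc17a7 probe set. The groups overlapped in all comparisons. No detection call comes with these values, so they do not show whether Slc17a7 RNA was present.

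**Figure D1:**
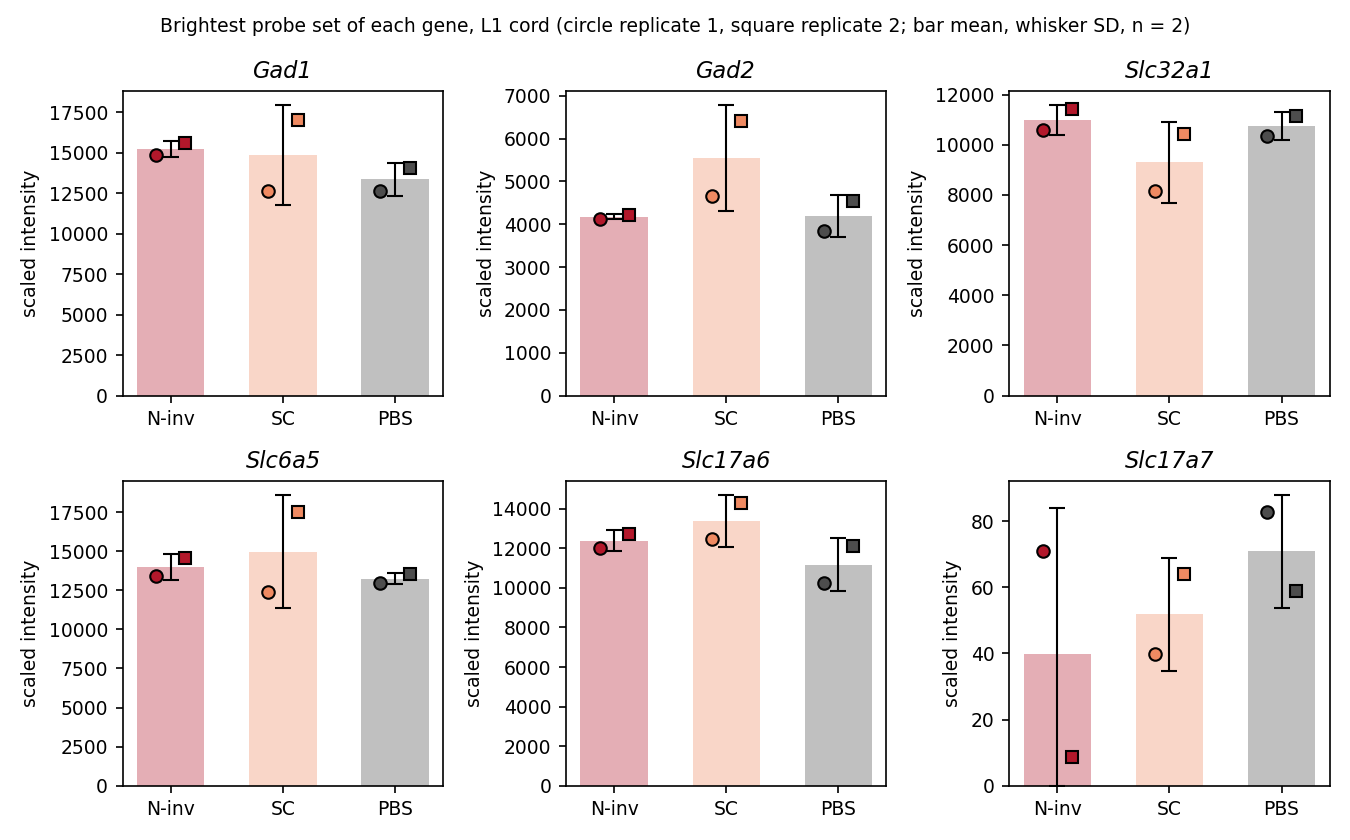
Scaled intensity (linear axis from 0) of the brightest probe set of each of the 6 measured genes in N-inv, SC and PBS; points are arrays, bars group means and whiskers the SD (n = 2, stopped at 0). The 5 abundant genes differ little between groups, and Slc17a7 stays at 82.94 or below. After scaling, SC arrays are far apart for Gad1, Gad2, Slc32a1 and Slc6a5. In the values as deposited they are closer for each of these genes, as for Gad1 at 13785 and 16061.

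The second Slc17a6 probe set spread more than the gene's brightest one. It measured 5175 and 6485 in N-inv, 3170 and 7121 in SC, and 3980 and 7862 in PBS, and its SD within groups was 0.63 on the log2 scale, against 0.13 for the brightest. Among probe sets of like brightness (the same decile by mean intensity), 0.355% had a larger SD. All 3 arrays numbered 2 read above all 3 arrays numbered 1, a pattern shared by 9% of the 27022 probe sets tested. In each group the array with the higher value was also the one with the higher Actb 3' to 5' ratio. For Gapdh, the other such control, that ratio stood at 3.13 and 3.38 in N-inv, 3.52 and 3.38 in SC, and 2.82 and 3.02 in PBS, so that in SC it ran the other way. The part of RNA quality in this spread was not tested. The intervals of this probe set were correspondingly wide, from -1.02 to 1.12 for N-inv against PBS.

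**Figure D2:**
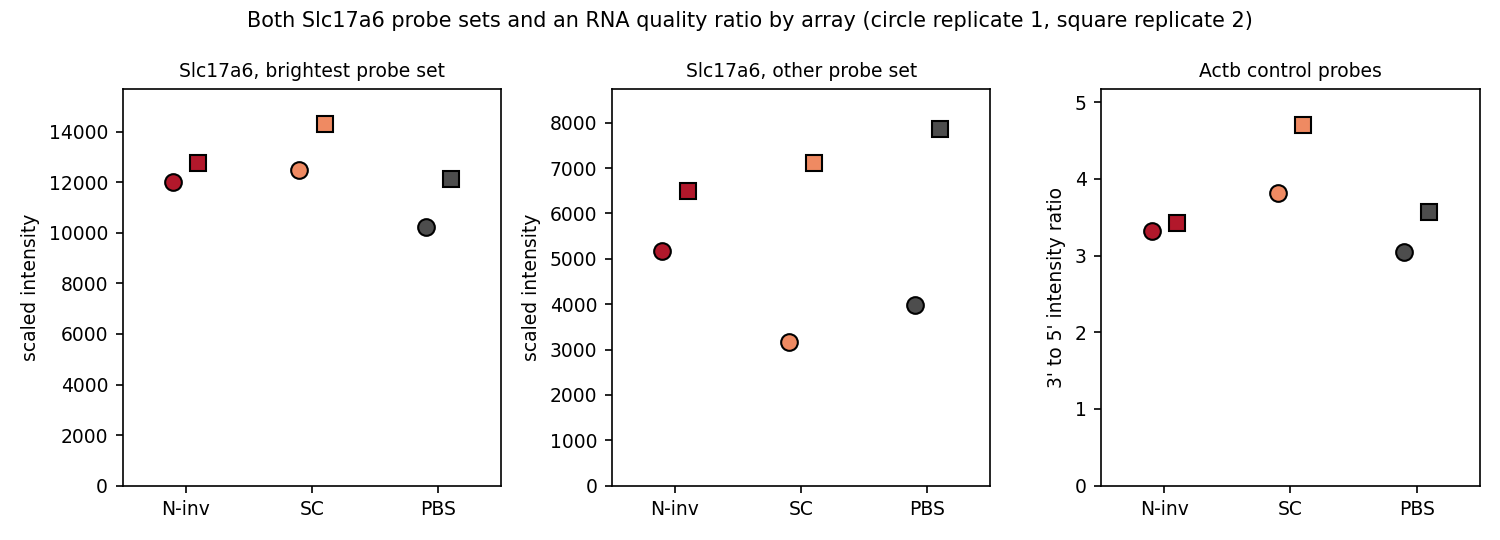
Scaled intensity of both Slc17a6 probe sets, and the 3' to 5' intensity ratio of the Actb control probes, in each array by group (circle replicate 1, square replicate 2). The second probe set runs from 3170 to 7862 while the brightest stays between 10240 and 14320.

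N-inv against PBS asks whether the cord segment differs 6 weeks after tumour cells entered the nerve. No transmitter identity gene passed the threshold (adjusted p under 0.05, over all probe sets tested). In limma 0 of the 8 tested member probe sets were called, against 0% of all 27022 probe sets, and 0 of the 8 had an unadjusted p under 0.05, against 4.06% of all. The 5 tested genes had a median log2 difference of 0.08, with a range from -0.003 to 0.19, where all probe sets had a median of 0.02. In absolute size the median was 0.08 for these genes and 0.08 for the 4504 brightest probe sets. All 5 intervals stayed inside a 2-fold change in either direction, with bounds between 0.71-fold and 1.58-fold, so smaller differences could not be resolved. Of the 8 probe sets 2, both of Gad1, had N-inv arrays above both PBS arrays, and 21.6% of all tested probe sets did, while 0 lay below both, against 14.6% of all. In the same arrays Gfap, the intermediate filament of astrocytes, was at 20520 and 19210 for N-inv and at 6665 and 7927 for PBS. Aif1 of microglia was at 364.5 and 468.4 for N-inv and at 243.2 and 165.3 for PBS. All 8 microglia markers were higher in both N-inv arrays than in both PBS arrays, as were 4 of 8 astrocyte markers, with 1 lower. Their part in the members' values was not tested.

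N-inv against SC sets the neural model beside the subcutaneous one. Again 0 of 8 member probe sets were called in limma, against 0% of all, and 0 had an unadjusted p under 0.05, against 8.94% of all. The 5 genes had a median of -0.07 and ran from -0.39 for Gad2 to 0.25 for Slc32a1, where all probe sets had a median of 0.05. Slc32a1 lay above SC in both N-inv arrays, as did 23.6% of all probe sets, and Gad2 lay below in both, as did 13.3%. The other tested Gad2 probe set overlapped. The intervals ran from 0.54-fold, for Gad2, to 1.61-fold, for Slc32a1, and all 5 included no difference.

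SC against PBS sets the 2 controls side by side and shares its arrays with the other comparisons. In limma 0 of 8 member probe sets were called, against 0% of all, and 0 had an unadjusted p under 0.05, against 7.92% of all. The median of the 5 genes was 0.15, with Gad2 highest at 0.39 and Slc32a1 lowest at -0.22, and their median absolute difference of 0.22 compared with 0.11 in the 4504 brightest probe sets. By their brightest probe sets Gad2 and Slc17a6 lay above PBS in both SC arrays, as did 14.2% of all probe sets, while their other tested probe sets overlapped. Of the 8 probe sets 0 lay below, against 20.2% of all. Leaving out SC replicate 2 or SC replicate 1 gave 0.16 or 0.36 for Slc17a6. After scaling, SC replicate 2 was the highest of the 6 arrays for 4 of the 5 genes. For Slc32a1 and Slc6a5 SC replicate 1 was then the lowest. In the values as deposited, SC replicate 1 was the highest for Slc17a6 and N-inv replicate 1 the lowest for Slc6a5. Beside these values, the posterior Hox gene Hoxd10 measured 4777 and 4439 in SC against 2457 and 3001 in PBS, with an adjusted p of 0.507 in limma, while the other 5 Hox genes overlapped. Of 7 oligodendrocyte and myelin markers 5 were lower in both SC arrays than in both PBS arrays and 1 was higher, with a list median of -0.26, and their summed level was 204900 and 210900 in SC against 203500 and 216500 in PBS. Of 8 microglia markers 2 were lower and 3 higher in the same sense. Among the lower was P2ry12, at 508.6 and 358.1 in SC against 798.0 and 756.6 in PBS. Among the higher was C1qc, at 1283 and 1532 in SC against 960 and 859.7 in PBS. The part of these markers, of Hoxd10 and of the higher Actb 3' to 5' ratios of SC in the members' values was not tested.

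**Figure D3:**
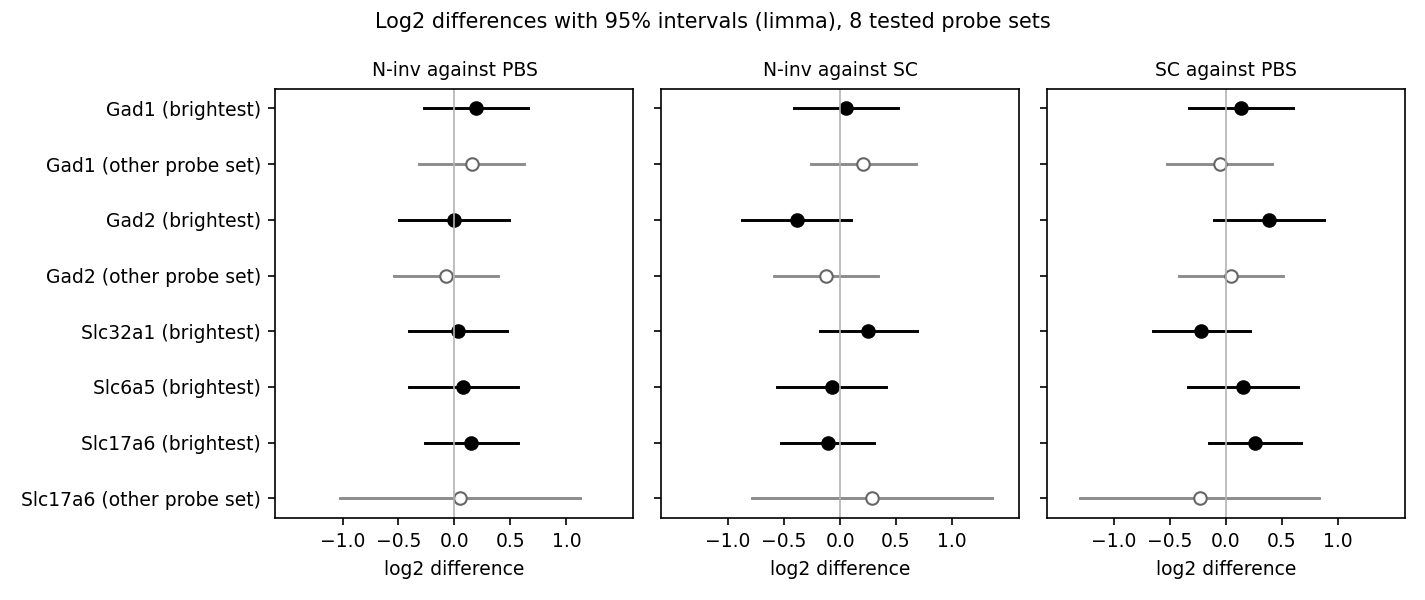
Log2 differences (points) with 95% intervals (lines) from limma for the 8 tested probe sets in the 3 comparisons; filled points are the brightest probe set of a gene, open points its other probe set. Every interval includes 0, and those of the second Slc17a6 probe set are the widest.

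Differences between genes within an array depend little on how the array was scaled (the pseudocount aside), and they were read after each gene had been centred on its mean over the 6 arrays. Gad2 minus Slc32a1 was -0.19 and -0.27 in N-inv, 0.36 and 0.47 in SC, and -0.26 and -0.12 in PBS, on the log2 scale. The SC arrays, which differed for each gene alone, were alike in this difference and lay apart from the other 4 arrays. Gad2 minus Gad1 was -0.19 and -0.23 in N-inv, 0.21 and 0.24 in SC, and -0.06 and 0.02 in PBS. Slc6a5 minus Slc32a1 was -0.10 and -0.09 in N-inv, 0.16 and 0.31 in SC, and -0.12 and -0.16 in PBS. These pairs were singled out after their values had been seen, and no test was made of them. With the other Gad2 probe set in place of the brightest, Gad2 minus Slc32a1 was -0.08 and -0.24 in N-inv, 0.21 and 0.215 in SC, and 0.14 and -0.24 in PBS, so that SC was still above the rest by a smaller margin. Gad2 minus Gad1 was not recomputed with that probe set, so its separation of SC rests on the brightest probe sets alone.

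The balance of inhibitory and excitatory genes showed less. The mean of Gad1, Gad2, Slc32a1 and Slc6a5 minus Slc17a6 was 0.00 and -0.01 in N-inv, -0.19 and 0.05 in SC, and 0.13 and 0.02 in PBS. N-inv lay below PBS in both arrays, by 0.08 on average, and the SC arrays spanned the N-inv values. This balance rests on the brightest probe sets and was not recomputed with the other Slc17a6 probe set. In intensity that probe set had both N-inv arrays inside the PBS range. How often other sets of genes separate N-inv from PBS in this way was not counted. The SD between the SC arrays was 0.17, larger than the distance between any 2 group means.

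**Figure D4:**
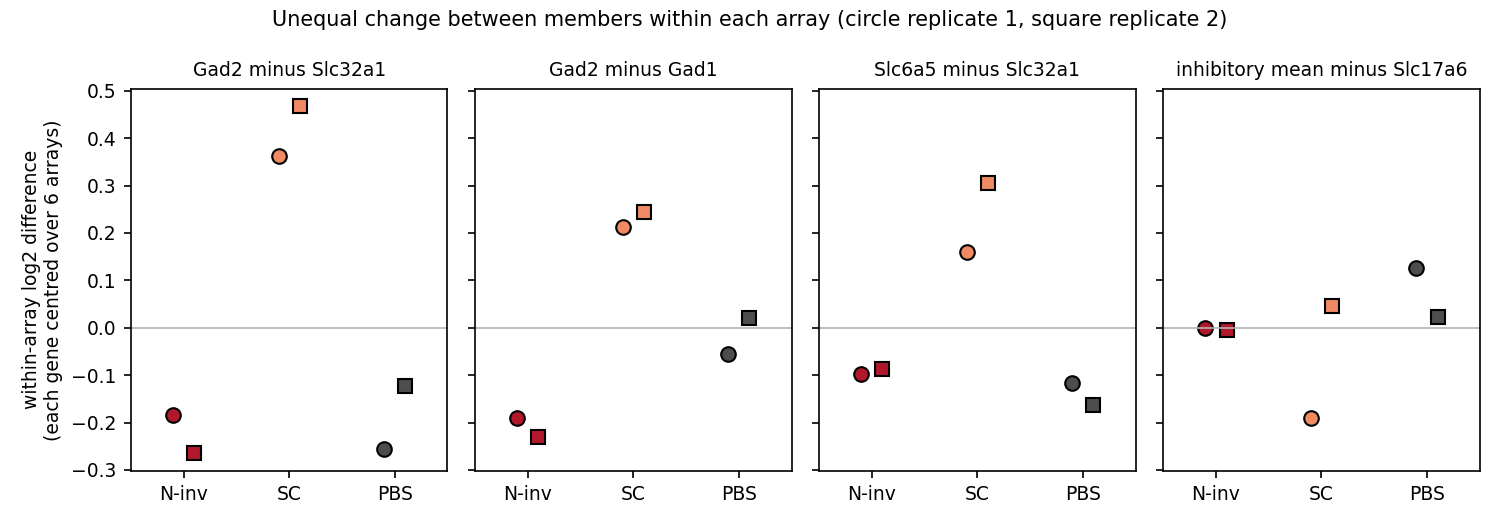
Within-array log2 differences between members, each gene centred over the 6 arrays, by group (circle replicate 1, square replicate 2). The SC arrays lie at 0.36 and 0.47 for Gad2 minus Slc32a1, above the 4 other arrays, and are split for the inhibitory mean minus Slc17a6.

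The members were also set against neurons in general, by the median of 12 pan-neuronal genes such as Snap25, Syt1 and Rbfox3. That median was 0.02 and 0.06 in N-inv, -0.12 and 0.09 in SC, and -0.03 and -0.01 in PBS. Relative to it, Gad2 was at -0.16 and -0.18 in N-inv, 0.15 and 0.40 in SC, and -0.21 and -0.001 in PBS. Slc32a1 was at 0.02 and 0.09 in N-inv, -0.21 and -0.07 in SC, and 0.04 and 0.12 in PBS, so that both SC arrays were lowest. Slc17a6 was at -0.05 and -0.005 in N-inv, 0.14 and 0.14 in SC, and -0.23 and -0.01 in PBS. By the brightest probe sets, both SC arrays lay apart from the other 4 for these 3 genes on this scale. In scaled intensity they did so for Gad2 alone, and Gad1 and Slc6a5 were split between the SC arrays. In the values as deposited, both SC arrays lay apart from the other 4 for Gad2, Slc32a1 and Slc17a6. The other tested probe sets of Gad2 and Slc17a6 were not set against the pan-neuronal median. In scaled intensity the SC arrays did not lie apart for those probe sets. How many of all probe sets separate in this way was not counted. In intensity SC lay above PBS in both arrays for 14.2% of all tested probe sets and below for 20.2%.

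Among themselves the members fell into a close and a distant pair. By the root mean square distance between centred log2 profiles over 6 arrays, Gad1 and Slc6a5 were nearest, at 0.07, and Gad2 and Slc32a1 farthest, at 0.30. Among 12610 other genes the profiles closest to the inhibitory mean were those of Vps13c, Clint1 and Eif2ak1, at 0.013, 0.015 and 0.020. Among 12613 the closest to Slc17a6 were Ahi1, Plppr1 and Fam217b, each at 0.025. Ahi1 measured 11450 and 12160 in N-inv, 12310 and 13540 in SC, and 10110 and 11680 in PBS. With 6 arrays and many nearly flat genes, such distances describe the shape of a profile and nothing more.

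Genes that remove or recycle these transmitters were read from lists. In N-inv against PBS 0 of the 4 tested genes of GABA uptake and breakdown, 0 of 6 of glycine uptake, synthesis and cleavage and 0 of 12 of glutamate and glutamine metabolism passed in either direction in limma, as did 0% of all probe sets. Their medians were 0.05, 0.06 and 0.06. Slc6a11, the GABA transporter GAT3 of astrocytes, was at 1260 and 1020 for N-inv and at 1437 and 1487 for PBS, and Slc6a13, the transporter GAT2, was at 516.8 and 735.9 for N-inv and at 448.4 and 454.9 for PBS. Slc1a2, the main glutamate transporter of astrocytes, was at 39470 and 38850 for N-inv and at 33790 and 34870 for PBS, while Slc1a3, its relative GLAST, was at 1756 and 1639 for N-inv and at 1887 and 2299 for PBS. These 4 genes had the smallest p of the GABA and glutamate lists, and their adjusted p was 1 in limma.

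In the comparisons with SC the uptake genes of glia had the smallest p of each list. Slc6a9, the glycine transporter GlyT1, which is found mainly on astrocytes, measured 6859 and 6482 in N-inv, 5102 and 4723 in SC, and 7104 and 7048 in PBS. Both SC arrays lay below the other 4. Its log2 difference was 0.44 ± 0.15 (SE) for N-inv against SC and -0.53 ± 0.15 for SC against PBS, with adjusted p of 0.495 and 0.531 in limma. Slc6a11 measured 648.5 and 1128 in SC against 1437 and 1487 in PBS (log2 difference -0.75 ± 0.27 SE, adjusted p = 0.592 in limma), and Slc38a3, a glutamine transporter of astrocytes, 1243 and 1262 in SC against 1856 and 1629 in PBS. In SC against PBS the 3 lists had medians of -0.007, 0.03 and 0.08 in the order given above, and 0 genes passed in each. In N-inv against SC the medians were 0.19, 0.05 and -0.05, again with 0 genes passed. Of the 8 astrocyte markers 1, Aqp4, was lower in both SC arrays than in both PBS arrays, 1, Aldoc, was higher, and 6 overlapped, with a list median of -0.03 for SC against PBS. Aqp4, their water channel, measured 28420 and 26400 in N-inv, 17120 and 20330 in SC, and 20680 and 25370 in PBS. Aldoc, a glycolytic enzyme, measured 58480 and 55090 in SC against 50380 and 50330 in PBS. The summed level of the list was 188500 and 196600 in N-inv, 147500 and 181800 in SC, and 154600 and 166500 in PBS. The part of astrocyte content in the values of Slc6a9 and Slc6a11 was not tested.

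Transcription factors that set inhibitory or excitatory fate were the last lists. Of 15 inhibitory factors 10 were above the filter and of 15 excitatory factors 5 were, and 0 passed in limma in any of the 3 comparisons. In N-inv against PBS the inhibitory factors had a median of 0.11, with 6 higher and 4 lower, and the excitatory factors a median of 0.05, with 4 higher and 1 lower. Lmx1b, a factor of excitatory dorsal horn neurons, measured 421.4 and 320.0 in N-inv, 218.3 and 418.0 in SC, and 535.2 and 492.6 in PBS. All 4 N-inv and SC arrays lay below both PBS arrays for this gene, by log2 differences of -0.46 ± 0.30 (SE) for N-inv and -0.71 ± 0.30 for SC, with adjusted p of 1 and 0.63 in limma. Pax8, a factor of inhibitory neurons, measured 212.4 and 248.0 in N-inv, 265.0 and 342.0 in SC, and 238.4 and 236.2 in PBS. Lhx5, another inhibitory factor, measured 118.6 and 252.5 in SC against 261.6 and 311.1 in PBS. In SC against PBS the inhibitory factors had a median of 0.07 and the excitatory factors one of -0.10.

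**Figure D5:**
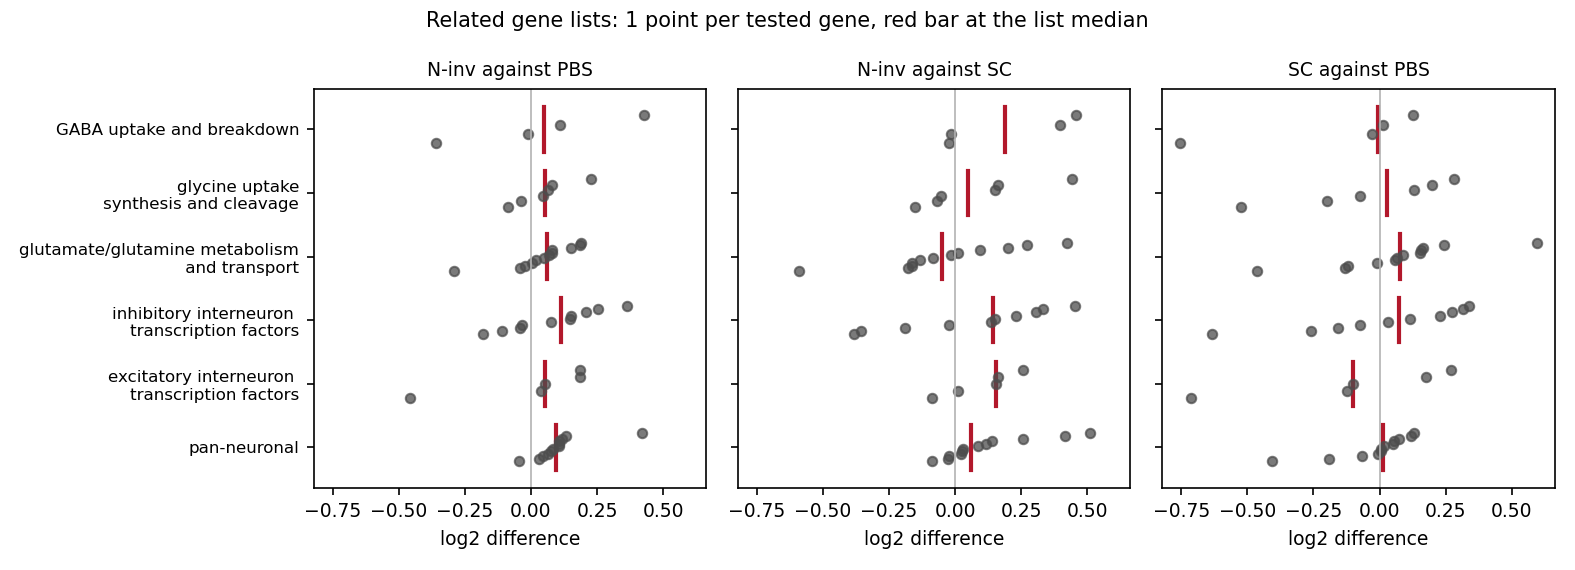
Log2 differences of the tested genes of 6 lists in the 3 comparisons; each point is a gene by its brightest probe set and the red bar is the list median. The medians lie between -0.10 and 0.19, and 0 genes of these lists passed the threshold.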

How the data were processed

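Per the labels' protocols, TRIzol was used for extraction and 100 ng of RNA per sample went into Affymetrix target labelling with biotin. The authors deposited intensity values on a linear scale whose 2% trimmed mean is 1000 on every array. How probes were summarised, and the genome build, are not given in the sources used here.

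Of 45101 probe sets 64 controls were left out. Arrays were brought to the same median (256.2) and log2(intensity + 25.62) was used; differences of dim genes are understated on this scale. Probe sets with a mean log2 value above the 40th percentile (an intensity of 147.7) were tested, 27022 in all. The two-sided test was limma (version 3.58.1, R 4.3.3), fitted as 1 model of 6 arrays (residual degrees of freedom 3, prior 3.72), with Benjamini-Hochberg adjustment over all probe sets. An exact permutation test of 2 against 2 arrays cannot go below 0.333 and was not used. The number of arrays limits the precision. A gene stands by its brightest probe set. In each list up to 3 genes with the smallest unadjusted p per comparison could be named, and for profiles the 3 nearest genes; Aqp4 and Hoxd10 fall under this rule, and Gfap and Aif1 were always read. The members, lists and rules were chosen with earlier results of these data known.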

Additional observations from a re-analysis of the deposited data

How the results depend on the processing

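Other normalizations, pseudocounts of 1 and 100, no filter, a filter at the 60th percentile, an intensity trend, only the groups compared, a replicate block, the mean over probe sets and leaving out each array were tried. Of the 15 differences (5 genes, 3 comparisons) 0 passed in limma under any of the 16 alternatives each, with a smallest adjusted p of 0.242, and 8 kept their direction under all. The count of member probe sets with an unadjusted limma p under 0.05 was less stable. In both comparisons with SC it was 1 of 8 with quantile normalization, with values as deposited and with an intensity trend. With values as deposited Slc32a1 was at -0.003 in N-inv against PBS and Gad1 at -0.002 in N-inv against SC. With quantile normalization Slc32a1 was at -0.038 in N-inv against PBS, and with averaged probe sets Slc17a6 was at 0.087 in N-inv against SC. Leaving out 1 array turned the sign of 6 differences: in N-inv against PBS Gad2 ran from -0.121 to 0.115 and Slc32a1 from -0.023 to 0.087, in N-inv against SC Gad1 ran from -0.163 to 0.265 and Slc6a5 from -0.324 to 0.174, and in SC against PBS Gad1 ran from -0.074 to 0.354 and Slc6a5 from -0.095 to 0.403. The cause was not tested.

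Over all probe sets 0 were called in each comparison, with 1097, 2417 and 2141 at an unadjusted p under 0.05. An intensity trend called 1 in N-inv against PBS and 2 in N-inv against SC, and only the groups compared called 1 in N-inv against PBS. Leaving out 1 array called 0 to 1, 0 to 1 and 0 to 9 in the order above, the last without SC replicate 1. With the replicate block 0 were called in each comparison, and 0 member probe sets. The replicate numbers did not mark shared animals in the labels, and the differences between replicates 2 and 1 correlated at -0.03, 0.01 and 0.04 between groups. Within-array differences cancel a scaling of the array by construction, so values as deposited say nothing of their stability, and they were not recomputed without single arrays. Other alternatives for Gad2 minus Slc32a1 were added after seeing the data.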
